A study of Homo sapiens with 4 samples.

Results

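The genes of 10 proteins that bind AU-rich elements, ELAVL1, ZFP36, ZFP36L1, ZFP36L2, HNRNPD, HNRNPDL, KHSRP, TIA1, TIAL1 and PCBP2, were followed through a PRMT5 RIP-seq experiment to see whether their own transcripts had peaks, and where. A peak belonged to a gene when its first-listed identifier matched that gene. The match was by the symbol in the study's supplemental list of PRMT5 targets (ELAVL1 and KHSRP) or by position on GRCh38 (the other genes). Position had to be on the same strand where the strand of the gene was given, and could be on either strand otherwise. By this rule 27 of 18993 peaks lay in 9 of the 10 genes, and ZFP36L1 had none. Of 20056 RefSeq protein-coding genes, 36.8% were touched by at least 1 peak. That share counts overlap on either strand under any identifier, a looser rule than that for the 10 genes. By assignment, 6260 protein-coding genes had a peak. The share also takes in genes whatever their RNA level in these cells, so it is no measure of preference for the 10 genes.

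RIP-seq sequences the RNA that is precipitated together with a protein, here PRMT5, the arginine methyltransferase that makes symmetric dimethylarginine. Jurkat cells, 1 established human T cell leukemia line, were stimulated for 48 hours with PHA, a plant lectin that activates T cells, and crosslinked with UV light (264 nm and 400 mJ per the labels). RNA precipitated with an antibody to FLAG (2 PRMT5 RIP libraries) was compared with RNA of the lysate (2 input libraries), and PHA and UV were common to both groups. The labels name PRMT5 and FLAG, but not the tagged construct the cells carried. At each peak the table holds 1 RPM value (a read count scaled to sequencing depth) per condition, so no spread between replicates, test or p-value could be computed for any value below, and the depth of each library is unknown. A precipitate with a control antibody was not analysed here, so RNA held by the beads or the antibody cannot be told apart from RNA held by PRMT5.

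AU-rich elements are short, U-rich stretches with repeated AUUUA motifs, found mostly in the 3′ UTRs of mRNAs for cytokines, growth regulators and immediate early factors. Proteins that bind them decide whether the mRNA is kept, degraded or left untranslated: HuR (ELAVL1) stabilizes it, the ZFP36 family and KSRP (KHSRP) bring in the decay machinery, AUF1 (HNRNPD) can act either way, and TIA1 and TIAR (TIAL1) hold back translation. In activated T cells such proteins limit how long mRNAs for cytokines such as TNF and IL-2 persist, and several of them also bind their own mRNAs.

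The bases at the 5′ edge of the first peak are shown for the 4 members where this edge lay inside a RefSeq promoter window of GRCh38.p14. Each line reads 5′ to 3′ on the strand of the transcript, with 10 bases before the peak in lower case and the first 20 bases of the peak in capitals.
HNRNPD, chr4:82373954-82373983, minus strand: ttttaggtggTCCGCGGCGGCGCCATTAAA
HNRNPDL, chr4:82430439-82430468, minus strand: ggcgggaacaAAGAAGCGAACGCGGGAGCA
TIA1, chr2:70248586-70248615, minus strand: attggggtttCATTGTTCCCGCTGGGCCGG
ZFP36, chr19:39406862-39406891, plus strand: ctcccactctCGGCCGACACCCCTCATGGC
The bases shown inside the peaks were 60% to 75% G or C, with the highest value in ZFP36 and the lowest in HNRNPDL. RefSeq promoter windows were found for 8 members (11 windows, since some genes have several starts). Their 50 transcribed bases had a median GC content of 68% (50% to 86%), beside 60% over all 35116 windows. ATTTA, the core of an AU-rich element, was searched for on the transcript strand only. It was in those 50 bases of 0 of the 11 windows and of 2.28% of all windows. At that share 11 windows would seldom hold one, so the 0 says nothing particular about the members. Bases outside the promoter windows, the 3′ UTRs among them, were not searched.

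ELAVL1, whose product HuR protects AU-rich mRNAs from decay, lies on chr19:7958573-8005641 (minus strand) and had 3 peaks. The first, at chr19:8002203-8005643, began 2 nt upstream of the annotated start and had 1.39 RPM in PRMT5 RIP against 0.29 RPM in input, 4.79-fold. The second (18036 nt wide) had 13.13 RPM in PRMT5 RIP against 9.64 RPM in input, and the third (4157 nt) had 14.75 and 9.58 RPM. ELAVL1 was thus most enriched where its signal was lowest. The log2 ratio of RPM in PRMT5 RIP over input (0.01 RPM added to each) was 2.22 at the first peak, 0.45 at the second and 0.62 at the third. Rounding of the table to 0.01 RPM allows 2.19 to 2.25 at the first peak, a range that leaves out the unknown error between replicates. The last 4900 nt of the gene, 10.4% of its length, held no peak.

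ZFP36 and ZFP36L2 encode CCCH zinc finger proteins, the first of them tristetraprolin, which bind AU-rich elements and bring in the CCR4-NOT deadenylase. ZFP36, on chr19:39406847-39409407 (plus strand), had 3 peaks with nearly the same enrichment. They had 1.00, 5.28 and 6.14 RPM in PRMT5 RIP against 0.32, 1.75 and 1.85 RPM in input, from the 5′ end on. Their log2 RPM ratios were 1.61, 1.59 and 1.73, at 3.13-, 3.02- and 3.32-fold. ZFP36 was the only member with every one of several peaks above 2-fold. Peaks covered 59.9% of this short gene (2561 nt), from 25 nt after its start to 803 nt before its end.

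ZFP36L2, on chr2:43222402-43226606 (minus strand), had 4 peaks, the first of which (880 nt) began at the annotated start itself. This first peak had 5.5 RPM in PRMT5 RIP against 1.87 RPM in input, with a log2 ratio of 1.55. The second had 3.31 and 1.84 RPM (log2 ratio 0.84), the third 0.87 and 0.26 RPM (1.70), and the fourth 0.94 and 0.36 RPM (1.36). All of the ZFP36L2 peaks lay in the 5′ part of the gene, and its last 2125 nt, 50.5% of its length, held none. ZFP36L1, the paralog on chr14:68787655-68796243 (8589 nt, minus strand), had no peak at all, so its RNA level in input is not known from the table. Being absent from a list of called peaks gives no upper limit on its enrichment.

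HNRNPD and HNRNPDL are neighbours on chromosome 4 and encode related hnRNP proteins, AUF1 and an AUF1-like protein. HNRNPD, on chr4:82352498-82373991 (minus strand), had 26.22 RPM in PRMT5 RIP against 4.74 RPM in input at its first peak (chr4:82371538-82373973), which begins with the bases printed above, 18 nt after the annotated start. That 5.53-fold difference was the largest of the members once peaks below 1 input RPM were set aside. Toward the 3′ end the difference shrank, to 11.91 against 6.87 RPM at the second peak and 4.21 against 3.95 RPM at the third. On the log2 scale the ratios of HNRNPD were 2.47, 0.79 and 0.09, and rounding could move them by less than 0.01. A stretch of 12863 nt without a peak separated the first HNRNPD peak from the second.

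HNRNPDL, on chr4:82422564-82430462 (minus strand), had the same order, with 2 small, highly enriched peaks at its start. The first, 4 nt after the annotated start, had 1.37 RPM in PRMT5 RIP against 0.21 RPM in input (log2 ratio 2.65), and the second had 0.42 against 0.05 RPM. The log2 ratio of the second, 2.84, was the highest of all 27 member peaks, but with so little input rounding alone allows 2.71 to 2.98. Most HNRNPDL signal lay in the third peak, with 27.93 and 17.07 RPM (log2 ratio 0.71). The fourth had 4.45 and 3.44 RPM (log2 ratio 0.37). Behind it, the last 4009 nt of the gene, 50.8% of its length, held no peak.

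KHSRP encodes KSRP, a KH domain protein that recruits decay enzymes to AU-rich mRNAs and also takes part in microRNA maturation. It had 5 peaks, the most of any member, on chr19:6413102-6424811 (minus strand). The broad first and second peaks had 7.70 and 14.37 RPM in PRMT5 RIP against 6.19 and 8.58 RPM in input, with log2 ratios of 0.31 and 0.74. KHSRP thus started with a weakly enriched peak, 281 nt into the gene, unlike the 5′ peaks of ELAVL1, HNRNPD and HNRNPDL. The third (25 nt) had 0.25 and 0.14 RPM, with a log2 ratio of 0.79 (0.72 to 0.87 by rounding). The fourth had 0.91 RPM in both, the only member peak with no difference, where rounding allows a log2 ratio between -0.016 and 0.016. The fifth (128 nt) had 0.34 and 0.11 RPM, with a log2 ratio of 1.54 (1.46 to 1.63 by rounding). MIR3940, a microRNA gene within KHSRP at chr19:6416410-6416511, fell in a gap between peaks and was touched by 0 of them.

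TIA1 and TIAL1 encode a pair of related RNA recognition motif proteins that repress translation of AU-rich mRNAs and gather in stress granules, and each had a single peak at its 5′ end. The TIA1 peak (chr2:70230853-70248605) had 7.36 RPM in PRMT5 RIP against 3.60 RPM in input, a log2 ratio of 1.03. It was 17753 nt wide and covered 45.1% of the gene, which lies on chr2:70209444-70248793 (minus strand). The TIAL1 peak (chr10:119596599-119596823) had 2.14 and 0.79 RPM, a log2 ratio of 1.43, and was 225 nt wide, 0.957% of the gene at chr10:119573465-119596964 (minus strand). TIAL1 was therefore represented by a short stretch at its start alone, with 98.4% of the gene lying 3′ of its peak.

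PCBP2, a KH domain protein that binds C-rich RNA and is known to stabilize or translationally control its targets, had the highest RPM and uniformly low ratios. It lies on chr12:53452102-53481162 (plus strand). Its first peak had 239.26 RPM in PRMT5 RIP against 164.86 RPM in input, a log2 ratio of 0.54, but cannot be given to PCBP2 alone. That peak listed 5 identifiers, began 10399 nt upstream of PCBP2 and spanned the neighbouring gene PRR13. A PRR13 peak inside it had 57.74 and 34.28 RPM. The second PCBP2 peak (12.46 and 9.90 RPM, log2 ratio 0.33) was nested within the first and touched PCBP2-OT1, an overlapping noncoding gene on chr12:53464468-53465057. The third, with 15.49 and 10.38 RPM and a log2 ratio of 0.58, listed PCBP2 alone. PCBP2 was the only one of the 9 genes without a peak above 2-fold.

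**Figure D1:**
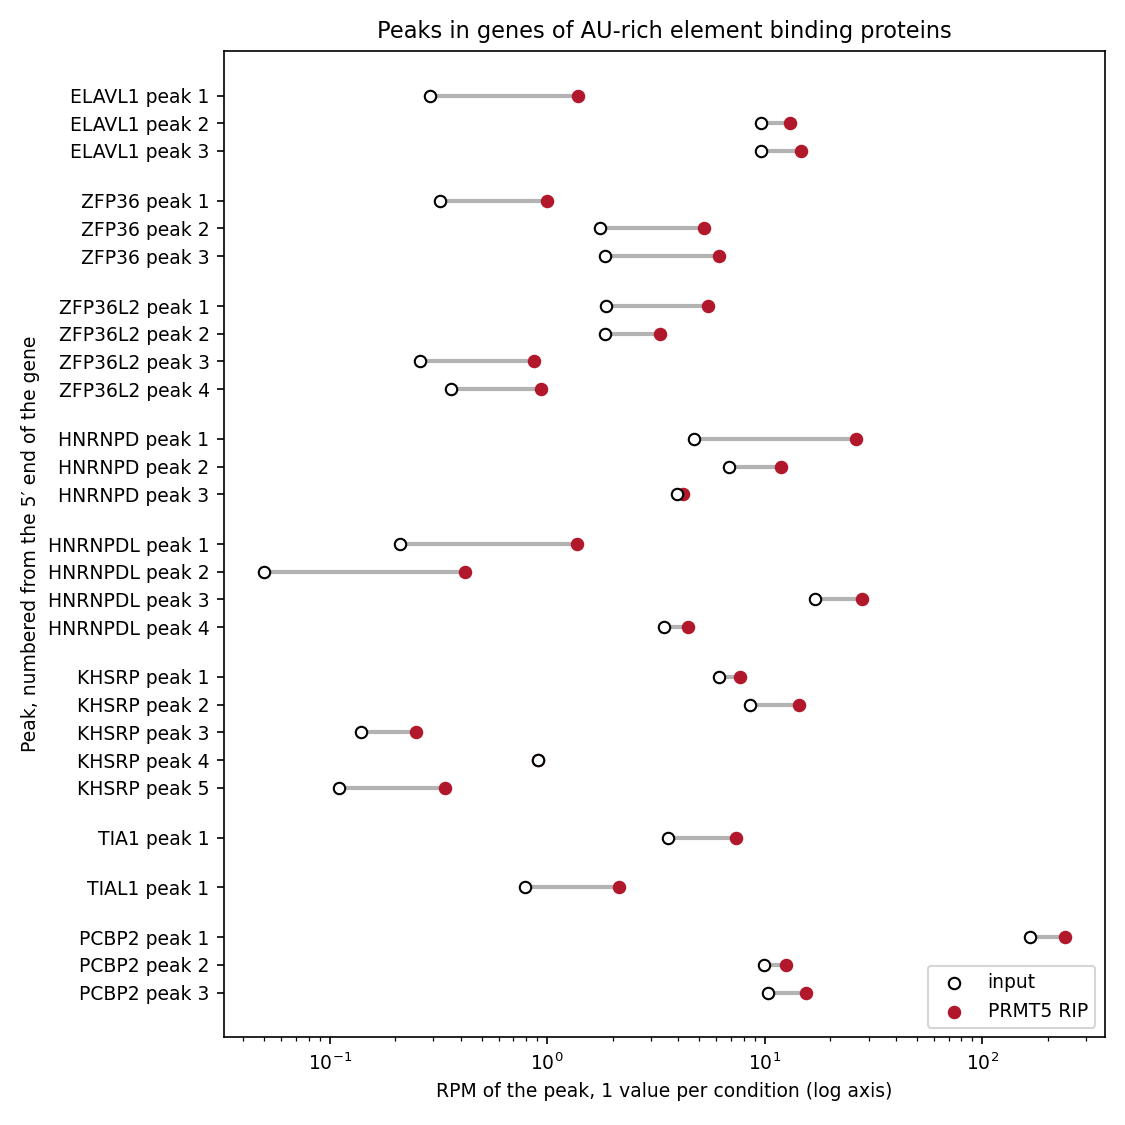
RPM of each of the 27 peaks (log axis) in input (open circles) and PRMT5 RIP (filled circles), 1 value per condition with no error available, by gene and numbered from the 5′ end. PRMT5 RIP lies to the right of input at 26 peaks and on it at KHSRP peak 4, and the longest lines belong to the first peaks of ELAVL1 and HNRNPD and to the first and second of HNRNPDL.

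Across the 9 genes, RPM was higher in PRMT5 RIP at 26 of 27 peaks, equal at 1 and lower at 0, beside 96.0% of all 18993 peaks that were higher. Since the list holds called peaks, nearly all of it lies in this direction, and nothing can be read from it about the members. A log2 RPM ratio of at least 1, that is 2-fold, was reached by 13 of the 27 (48.1%), beside 55.7% of all peaks. The median log2 RPM ratio of the member peaks was 0.84 (0.00 to 2.84), against 1.10 over all peaks. The member median lay below that of the list on this scale, but above it with 1 RPM added to each value (0.57 against 0.46) and by the log2FC of the peak caller given next, so the order depended on the measure. The RPM values of all peaks summed to 755969 in PRMT5 RIP and 489424 in input.

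The deposited log2FC of the peak caller was larger than the log2 RPM ratio at every member peak that had one. It ranged from 0.73 to 4.32 over 26 member peaks, with a median of 2.15, above the 1.95 over all peaks, which is the opposite order to that of the RPM ratio. The first PCBP2 peak had no log2FC. The excess over the log2 RPM ratio was 0.72 to 1.97, and was largest at the first peak of ELAVL1 (log2FC 4.19) and second at the first peak of HNRNPD (4.32). How log2FC was scaled is not given in the sources used here. Both measures put the first HNRNPD peak far above the other peaks of that gene (log2FC 1.51 and 0.82).

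The members also differed from the list in signal and in width. Their median RPM was 1.87 in input and 5.28 in PRMT5 RIP, beside 0.83 and 1.95 over all peaks. Their median width was 880 nt (25 to 25605 nt) against 275 nt, and 12 of 27 (44.4%) were wider than 1000 nt against 32.5%. In 7 of the 9 genes there were 3 or more peaks, as in 36.6% of 6260 named protein-coding genes. None of the 27 overlapped a peak on the opposite strand, beside 18.1% of all peaks.

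Of the 27 peaks, 16 lay outside the first 500 nt of their gene. All 9 genes had a peak that touched this stretch, beside 71.8% of named protein-coding genes. In PCBP2 this was the shared first peak, which began 10399 nt upstream of the gene. In the last 500 nt, 0 of 9 genes had a peak, beside 24.2%. With a window of 250 nt the counts were 8 and 0 genes. With 1000 nt they were 9 and 1, the gene at the 3′ end being ZFP36. Shares of named genes were computed for 500 nt only, so these other counts have nothing to stand beside. The last peak ended 803 to 23134 nt before the gene end, and its median distance of 2849 nt was shorter than the 4925 nt of named genes. In 8 of 9 genes it was over 1000 nt, beside 68.1% of named genes. The 3′ UTRs could not be placed, since exon positions were not used here. Whether a last peak ends before or within the 3′ UTR is thus not known.

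**Figure D2:**
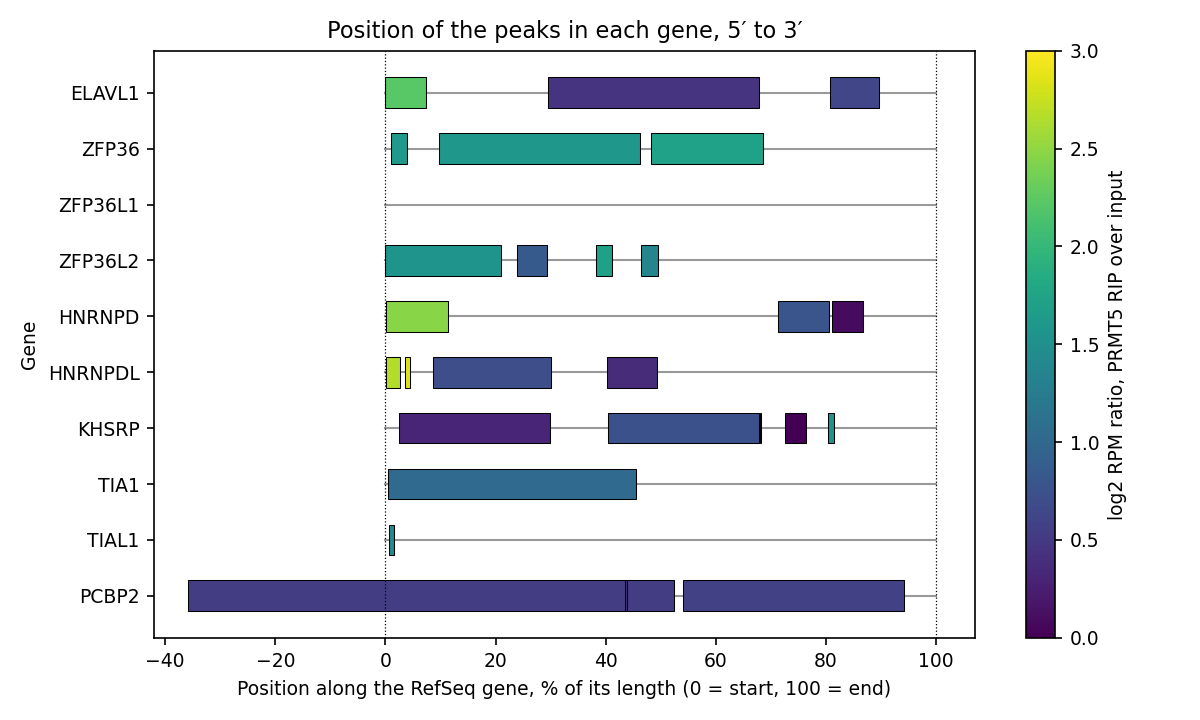
Peaks (boxes) along the 10 genes, each drawn from its annotated start to its end and scaled to its length and coloured by the log2 RPM ratio of PRMT5 RIP over input, with no box for ZFP36L1. Boxes lie at or near the start of all 9 genes with a peak and touch the end of none, the first PCBP2 box begins upstream of the gene, and the lightest boxes, up to 2.84, sit at the starts of HNRNPDL, HNRNPD and ELAVL1.

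Peaks that touched the first 500 nt had a higher median ratio than the others, in the members as in the list. The RPM of a peak covers its whole width, so these are not ratios of the first 500 nt alone. The widest such member peak, in PCBP2, had 25605 nt. The 11 member peaks that touched the first 500 nt had a median log2 RPM ratio of 1.59 (0.31 to 2.84), and 9 of them reached 1. The 16 others had a median of 0.73, and 4 of them reached 1. Over all named protein-coding genes the medians were 1.43 in 5188 peaks that touched the first 500 nt and 0.94 in 10040 others. Of these, 73.1% and 47.6% reached 1. The 2 members whose start peaks stayed below 1 were KHSRP and PCBP2.

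The difference between the ends was not shared by all members. Of the 7 with at least 2 peaks, 4 had the higher log2 RPM ratio at the 5′-most peak, beside 71.3% of such genes in the list. The 5′-most peak exceeded the 3′-most by 2.37 in HNRNPD, 2.28 in HNRNPDL and 1.60 in ELAVL1, and by only 0.19 in ZFP36L2. It was lower in KHSRP (difference -1.23), where the 3′-most peak had only 0.34 RPM in PRMT5 RIP. The ends of ZFP36 (-0.11) and PCBP2 (-0.04) were nearly level. In PCBP2 the 5′-most peak is the shared one that spans PRR13, so its value is not that of the PCBP2 start alone. Low input went with high ratios at several of the peaks compared here, and the part of low input in the result was not tested.

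**Figure D3:**
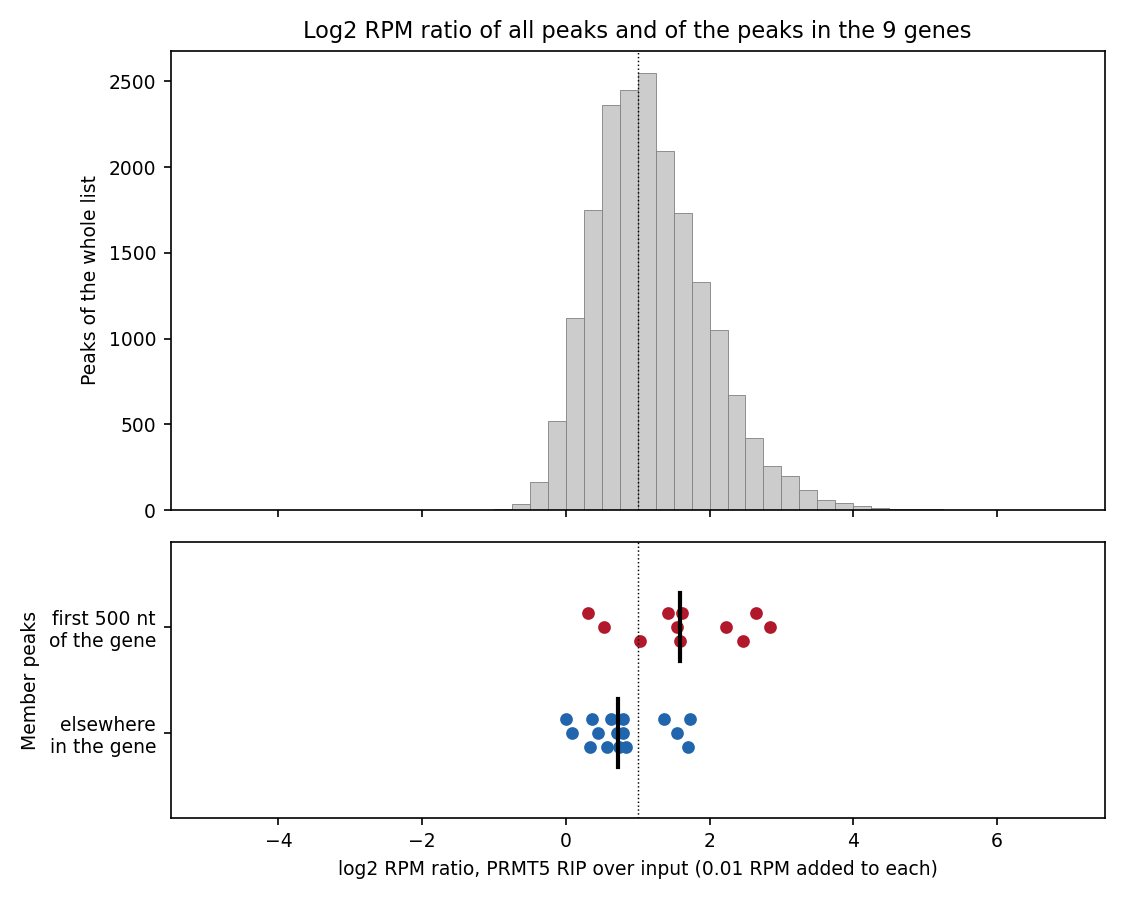
Log2 RPM ratio of PRMT5 RIP over input for all peaks (bars, number of peaks, upper panel) and for the 27 member peaks (points, lower panel, black bars at the medians), split by whether the peak touched the first 500 nt of its gene. The dotted line marks 2-fold, which 9 of 11 points in the first 500 nt and 4 of 16 elsewhere reached, and the medians were 1.59 and 0.73.

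When each gene was represented by its peak of highest input RPM, 4 of the 9 members reached a log2 RPM ratio of 1 (ZFP36 at 1.73, ZFP36L2 at 1.55, TIAL1 at 1.43 and TIA1 at 1.03), beside 60.8% of named protein-coding genes. HNRNPD (0.79), KHSRP (0.74), HNRNPDL (0.71), PCBP2 (0.54) and ELAVL1 (0.45) followed. This order did not hold across measures. With the RPM of all peaks of a gene summed, HNRNPD (1.44) passed TIAL1 (1.43), ZFP36L2 (1.29) and TIA1 (1.03), so that 5 genes reached 1, and with 1 RPM added to each value TIA1 (0.86) and TIAL1 (0.81) dropped out, which left 2. Shares of named genes under these other measures were not computed. With no replicate values it cannot be said which neighbours in this order differ. The member median was 0.79, against 1.18 for all named protein-coding genes.

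The partners and targets of these proteins were described in the same way, to be read beside the 36.8% of protein-coding genes touched by a peak and the 60.8% of named genes at a ratio of 1 or more. Of 20 genes of deadenylation (CCR4-NOT, TOB, BTG, PAN, PARN and PABPC genes), 13 had a peak and 11 of those reached a ratio of 1 (median 1.30). Among the 11 was CNOT3, a subunit of CCR4-NOT, with 3.72 RPM in PRMT5 RIP against 1.5 RPM in input. PABPC1, the poly(A)-binding protein, was lower, with 35.46 and 25.84 RPM and a ratio of 0.46. Of 15 exosome genes 12 were touched by a peak, 11 had one assigned and 4 reached 1 (median 0.57), from EXOSC3 at 2.70 to EXOSC9 at -0.02 among those with at least 1 RPM in input. Of 12 genes of decapping and 5′ decay 5 were touched, 4 had an assigned peak and 3 reached 1 (median 1.37). DCPS, the scavenger decapping enzyme, was at 0.36 and overlapped a peak on the opposite strand.

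Of 20 other genes for AU-rich or U-rich binding proteins, 17 were touched, 14 had an assigned peak and 5 reached 1 (median 0.71). YBX1, a cold shock domain protein, had 652.06 RPM in PRMT5 RIP against 300.97 RPM in input (ratio 1.12), and HNRNPC had 71.89 against 65.60 RPM (0.13). Of 20 mRNAs known for AU-rich elements of their own, 9 had a peak and 7 reached 1 (median 1.76). MCL1, an antiapoptotic BCL2 family member, had 17.92 against 3.95 RPM (2.18) and EGR1, an immediate early transcription factor, 16.29 against 3.70 RPM (2.14). The proto-oncogene MYC, with 25.71 against 20.85 RPM, had a ratio of 0.30 and overlapped a peak on the opposite strand. As a check of the cell type, 10 of 10 T cell markers, 1 of 5 B cell markers (CD79A) and 1 of 5 myeloid markers (CSF1R) were touched by a peak. The 9 T cell markers with an assigned peak had ratios of 0.06 to 0.71 (median 0.27), 0 of them at 1 or more. The CD79A peak had 36.56 against 21.91 RPM, and no peak was assigned to CSF1R.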

How the data were processed

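The deposited table lists 18993 peaks made by the authors from 2 PRMT5 RIP and 2 input libraries, with RPM rounded to 0.01 for each condition. The deposited log2 fold change, p-value and FDR are the peak caller's comparison of PRMT5 RIP with input. fastp, HISAT2 and hg38 are named in the submitters' processing notes. The peak caller, the annotation, the RPM denominator and the way replicates were pooled are not given in the sources used here. RPM values at every 0.01 occurred, which left no read steps to recover counts from.

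Peak starts were raised by 1 to count from 1. Of 8478 first-listed identifiers 6967 received a gene name, from the symbols of the study's supplemental target list or from RefSeq genes of GRCh38.p14 touched by all peaks of the identifier. The RefSeq table gives strand only through its promoter windows, and genes without one were matched on either strand. Assignments of overlapping genes are uncertain. The log2 RPM ratio used a pseudocount of 0.01 RPM, and a peak was at a gene end when it touched the first or last 500 nt. Positions, end windows and the comparison of gene ends were tested on simulated data, but the matching of peaks to genes was not. Python 3.11.15, pandas 2.3.3, numpy 2.4.6 and matplotlib 3.10.9 were used. The members, lists and alternatives were chosen with earlier results of these data known. All members are given, and of each related list names were drawn from the 3 genes with the largest and the 1 with the smallest ratio among those with at least 1 RPM in input. Alternatives covered the pseudocount, window, identifier, FDR, input RPM, width, opposite-strand overlap, summed RPM and the log2FC of the peak caller.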

Additional observations from a re-analysis of the deposited data

How the results depend on the processing

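No paired analysis was possible because the table holds 1 pooled value for each condition. The 69 alternatives covered counts as well as ratios. No member peak was lower in PRMT5 RIP, so a pseudocount or summing could not change the sign of a ratio. The order of the member median and that of all peaks turned under 2 settings. The members lay above the list with a pseudocount of 1 RPM (0.57 against 0.46) and by the log2FC of the peak caller (2.15 against 1.95). The number of member genes with a peak stayed at 9 under all 5 of its alternatives. The median log2 RPM ratio of the member peaks, 0.84, became 0.94 with an FDR of at most 0.01 and also with a width of at least 50 nt, 0.71 with at least 0.5 RPM in input, 0.81 with a pseudocount of 0.1 RPM, 0.57 with one of 1 RPM, 2.15 by the log2FC of the peak caller, and 1.03 as the median over genes of the log2 ratio of summed RPM. The 13 peaks with a log2 ratio of at least 1 became 6 of 19 with at least 0.5 RPM in input and 4 with a pseudocount of 1 RPM. By the log2FC of the peak caller they became 24 of 26. The shares of all peaks at 1 or more were not computed under these settings, and the median log2FC of all peaks was 1.95. The 0 peaks at the gene end became 1 with a window of 1000 nt. HNRNPD at its peak of highest input moved from 0.79 to 1.44 when the RPM of all its peaks were summed. The 4 members at a log2 ratio of 1 or more at that peak became 5 with summed RPM and 2 with a pseudocount of 1 RPM. By the log2FC of the peak caller they became 8 of 8. The first PCBP2 peak has no log2FC. The shares of named genes were not computed under these settings either. The error between libraries and their depth could not be assessed.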
